A study of Homo sapiens with 14 samples.

Results

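The comparison described here set icLASER profiles of RNA probed inside living K562 cells against icLASER profiles of RNA that had been taken out of the same kind of cell and refolded in a tube. K562 is an established human leukaemia cell line that makes fetal and embryonic globins. In the in vivo group the cells themselves were treated, and in the in vitro group the total RNA was isolated and allowed to refold before treatment. Both received 5 µl of 1 M NAz-N3 in 45 µl and 10 min of ultraviolet light, and the remaining group, the No UV icLASER control, served as background. Each group had 2 libraries, so 6 of the 14 libraries of the series belong to icLASER, and the other 8 to icSHAPE, which was used here only for values side by side. The control group was identified by its titles, since its treatment text also names the light. No genotype or drug set the groups apart, and per the study's methods all samples were selected for poly(A) RNA after probing.

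The deposited profile of each condition holds 1 row per transcript, with an abundance value (RPKM, reads scaled by transcript length and library size) and a reactivity score from 0 to 1 for each nucleotide. The in vivo profile had 16648 rows and the in vitro profile 15853. A transcript was a member where it stood in both profiles, which 13809 did, and had at least 100 nucleotides scored in both, which left 13593. Of those, 13339 were matched to a gene in GENCODE 44, and the transcript with the highest mean RPKM was kept for each of 4544 genes. For comparison, 20512 transcripts stood in at least 1 of the 4 profiles of the series, and 3504 of the 4544 genes were also in both icSHAPE profiles. Every deposited row had an RPKM above 5 (lowest 5.02 in vivo and 5.01 in vitro), so a gene that fell below that level in either condition could not be a member.

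NAz-N3 is a nicotinoyl azide that light turns into a short-lived reactive species, which attaches to the C8 position of purines where that face of the base is open to solvent. icSHAPE instead acylates the 2′-hydroxyl of flexible nucleotides. A nucleotide that is paired, stacked or covered by a protein tends to be shielded from such reagents. Proteins, ribosomes and helicases act on RNA in the cell and are absent from RNA refolded in a tube, which is why the pair of conditions is compared. The scores were scaled within each transcript, and 5.05% of the nucleotides of a median gene stood at exactly 1 in either condition, so that a mean score is relative to the most reactive nucleotides of its own transcript. Each profile merged its 2 libraries with the control, so every value below is a single measurement per condition, without a replicate check, and no difference was tested.

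Markers of K562 cells were present in both profiles. Of 16 erythroid and K562 markers, 14 had a row in both conditions, with HBG1, the fetal gamma globin, at 1763 RPKM in vivo and 1225 in vitro, and HBZ, the embryonic zeta globin, at 403 and 340. The erythroid transcription factor GATA1 stood at 99.7 and 85.6 RPKM and KLF1 at 65.8 and 71.3, while TAL1 and BCR had no row. None of 3 T cell and none of 3 B cell markers had a row, and 3 of 12 epithelial markers did (EPCAM at 27.1 and 20.3 RPKM, KRT19 at 35.6 and 24.8, ANXA1 at 34.7 and 25.7).

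Abundance differed little between cells and refolded RNA for most genes and by a large factor for small structured RNAs. The median gene had 17.4 RPKM in vivo and 15.7 in vitro, and the median log2 ratio of 0.165 (1.12-fold) was subtracted from every gene, so that ratios are relative to the median gene. From the 5th to the 95th percentile the centred log2 ratio ran from −0.72 to 0.74. An RPKM at least 2-fold higher in vivo was seen in 56 genes (1.23%) and one at least 2-fold lower in 126 (2.77%). Of those 126, 71 (56.3%) were ribosomal, spliceosomal, nucleolar or other small RNAs. All 4 genes of the 5.8S rRNA, all 7 snoRNA genes and 33 of 36 snRNA genes were at least 2-fold lower in vivo, with median log2 ratios of −4.56, −3.12 and −2.20. Among 40 genes of the class misc_RNA, which holds 7SK and signal recognition particle RNAs with their copies, 22 were. RPKM in the files is not attributed to a single library or treatment, and copies of a multicopy RNA share reads, so these gene counts are not counts of independent RNAs. The ratio compares 2 preparations of RNA from K562 cells, so it does not measure how much of an RNA a cell holds.

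The 2 copies of the U4 snRNA, which pairs with U6 in the spliceosome, had the lowest ratios of all genes: RNU4-1 had 17.3 RPKM in vivo and 2156 in vitro (log2 ratio −7.12), and RNU4-2 had 32.4 and 3604 (−6.96). 7SK, the scaffold that holds the elongation factor P-TEFb inactive, had 65.0 and 1717 RPKM (−4.89). The U1 snRNA gene RNU1-1, whose product recognises the 5′ splice site, had 61.7 and 1135 (−4.37). SNORA73A and SNORA73B, H/ACA small nucleolar RNAs, had 15.4 and 15.2 RPKM in vivo against 281 for each in vitro. SNORD3A, the U3 snoRNA that takes part in cleavage of the rRNA precursor, had 25.8 and 196 RPKM (−3.10). All of these are RNAs without a poly(A) tail that act in stable particles, and in each the in vitro level was many times the in vivo level.

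Several other structured RNAs stood closer together. The U2 gene RNU2-1 had 124 RPKM in vivo and 278 in vitro (log2 ratio −1.32), while the other U2 gene, RNU2-2P, had 60.9 and 260 (−2.26). RN7SL2, the RNA of the signal recognition particle, had 2685 and 6220 RPKM (−1.38). Of the mitochondrial rRNAs, which carry short A tails, the small subunit MT-RNR1 had 2571 and 7033 RPKM (−1.62) and the large subunit MT-RNR2 had 10824 and 11746 (−0.28). BCYRN1, a brain cytoplasmic RNA with an internal A-rich stretch, went the other way, with 4828 RPKM in vivo and 2461 in vitro (0.81). Of the separate rRNA rows, 28S had 4419 RPKM in vivo and 14425 in vitro (−1.87), while 18S had 1257 and 17758 (−3.99), as far apart as the small RNAs above. In icSHAPE on the same genes, the log2 ratio was −6.19 for RNU4-1, −3.98 for RNU1-1, −3.27 for 7SK, −4.09 for RNU2-1 and −1.10 for RN7SL2, each below the median gene there too.

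MALAT1, a nuclear long noncoding RNA, differed in sign between the reagents: its most abundant transcript had 404 RPKM in vivo and 319 in vitro with icLASER (log2 ratio 0.18) but 28.3 and 694 with icSHAPE (−4.74). That transcript is 352 nucleotides long and covers only a fragment of the gene.

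Among longer transcripts, those lower in vivo included many from genes of nuclear RNA-binding and ribosome assembly proteins. The lists are named for mRNAs, but the transcript kept for a gene could be of another class, such as retained intron. Of 23 measured mRNAs of nucleolar and ribosome assembly proteins (30 listed), 18 were below the median gene, 5 (21.7%) were at least 2-fold lower against 2.77% of all genes and 55 of 4450 longer transcripts (1.24%), and the median log2 ratio was −0.41. Of 37 measured hnRNP and SR protein mRNAs (45 listed), which encode splicing and packaging proteins, 32 were below the median gene, 3 (8.11%) were at least 2-fold lower, against the same 2.77% and 1.24%, and the median was −0.40. With icSHAPE the median log2 ratios of these lists were −0.08 and −0.18. The lowest of the hnRNP list was HNRNPM, at 7.50 RPKM in vivo and 28.2 in vitro (−2.07), and the SR protein mRNA SRSF1 stood at −1.02. NOP56, a core protein of C/D snoRNPs whose transcript here holds a snoRNA, was at −1.24, NOLC1 at −1.08, and NCL, which encodes nucleolin, had 63.1 and 115 RPKM (−1.03). Outside the lists, SFPQ, a paraspeckle protein, had 61.1 and 128 RPKM (−1.23), MPHOSPH10, a component of the U3 particle, had 8.10 and 24.9 (−1.79), and WDR43 was at −1.61. SRSF1, NOLC1, NCL, MPHOSPH10 and WDR43 were picked after their values were seen. The NOP56 and WDR43 transcripts have no defined coding sequence. Those of NOLC1 and SFPQ are of the nonsense-mediated decay class, and that of MPHOSPH10 is of the retained-intron class. Over 3 transcripts of SFPQ the log2 ratio ran from −1.23 to 0.06. TFRC, the transferrin receptor with iron-responsive elements in its 3′UTR, had 9.24 and 17.97 RPKM (−1.12), but with icSHAPE 14.4 and 13.9 (−0.07).

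Ribosomal protein mRNAs lay on the other side. Of 84 measured cytosolic ribosomal protein mRNAs (87 listed), 80 were above the median gene, with a median log2 ratio of 0.51 and a range of −0.38 to 0.90, and none passed 2-fold in either direction. Their median level was 512 RPKM in vivo and 315 in vitro. RPLP2, a protein of the ribosomal stalk, had 1377 and 681 RPKM (0.85). Translation factors were mixed, with a median of 0.28 (35 of 36 measured) and 12 below the median gene. Their highest member was PABPC4, a cytoplasmic poly(A)-binding protein, at 28.8 and 11.2 RPKM (1.19). Their lowest was EIF4A2, a helicase of the cap-binding complex, at 7.99 and 17.0 RPKM (−1.25), whose transcript here holds a snoRNA. Nuclear-encoded oxidative phosphorylation mRNAs stood at 0.26 (80 of 91 measured, 68 above the median gene) and the 13 mitochondrially encoded mRNAs also at 0.26. Globin mRNAs stood at 0.16, proteasome subunits at 0.00, chaperones at −0.18, DNA replication and cell cycle mRNAs at −0.28 and glycolytic enzymes at −0.30. The same ribosomal protein mRNAs had a median of −0.04 in icSHAPE. Every glycolytic enzyme gene measured with icSHAPE was above the median gene there, from 0.03 in LDHB to 0.72 in GPI. The sign of that list thus differed between the reagents. Abundance and length moved with these ratios. Of 4 equal groups of genes by mean RPKM, the highest had a median of 0.32 and the lowest −0.15, and of 4 equal groups by length the shortest had 0.37 and the longest −0.24. Their part in the list values was not tested.

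The genes at least 2-fold higher in vivo were mostly copies of abundant mRNAs: 44 of the 56 were processed pseudogenes, 7 were processed transcripts and 2 were transcripts without a defined coding sequence. The 1045 processed pseudogenes had a median log2 ratio of 0.43 with icLASER and 0.12 with icSHAPE. RPLP0P10 had 65.5 RPKM in vivo and 26.3 in vitro (1.15), and RPS27AP16 had 907 and 377 (1.10). Such copies share sequence with their parent mRNAs, and reads of the parent and of the copy cannot be told apart here. The 3 protein-coding transcripts among the 56 were PABPC4, C4orf48 at 161 and 67.5 RPKM (1.09) and IGF1 at 18.2 and 7.83 (1.05). GDF15, a stress-induced secreted factor, came just under the threshold with 199 and 97.5 RPKM (0.87).

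Within the transcripts, the mean score was nearly the same in both conditions, but high scores lay at different places. Because scores are scaled within each transcript, near-equal means do not show equal reactivity. The median gene had a mean score of 0.158 in vivo and 0.155 in vitro, with a median difference (in vivo minus in vitro) of 0.0069, above 0 in 2932 genes (64.5%). Over A and G alone, the bases the reagent modifies, the direction turned, with a median of −0.0017 and 47.5% of 2707 genes above 0. The mean score was at least 0.05 higher in vivo in 84 genes (1.85%) and at least 0.05 lower in 61 (1.34%). When the nucleotides of each transcript were divided into 10 equal bins from the 5′ end, the median in vitro score was lower in each successive bin, from 0.226 in the first bin to 0.073 in the last. In vivo it was 0.171 in the first bin, between 0.130 and 0.146 in the bins between, and 0.188 in the last. The median difference therefore ran from −0.043 in the first bin, where 25.3% of genes were above 0, to 0.106 in the last, where 91.2% were.

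**Figure D1:**
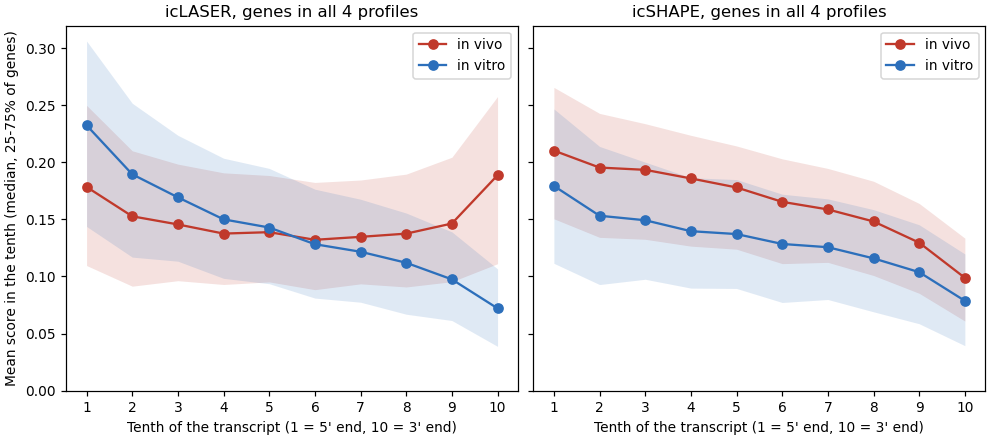
Median over genes of the mean score (vertical axis) in 10 equal bins of each transcript from the 5′ end to the 3′ end (horizontal axis), for icLASER on the left and icSHAPE on the right, in genes present in all 4 profiles, with bands from the 25th to the 75th percentile. The icLASER in vitro line runs from 0.232 down to 0.072 and crosses the in vivo line, which ends at 0.189, while both icSHAPE lines decline.

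The change of sign along the transcript was present in most genes. In the 5′ part, the first of 2 equal parts, the median difference was −0.021 and 3405 genes (74.9%) were below 0. In the 3′ part it was 0.036 and 3902 genes (85.9%) were above 0. The 3′ part exceeded the 5′ part in 3856 genes (84.9%), and only 1080 (23.8%) had the same sign in both. In the 573 protein-coding transcripts with all 3 regions measured, the median difference was −0.048 in the 5′UTR, −0.012 in the coding sequence and 0.048 in the 3′UTR, and the 3′UTR exceeded the 5′UTR in 494 (86.2%). Protein-coding transcripts ran from −0.057 in the first bin to 0.124 in the last, lncRNAs from −0.031 to 0.104, retained-intron transcripts from −0.029 to 0.116 and processed pseudogenes from −0.016 to 0.034. Transcripts under 500 nucleotides ran from −0.005 to 0.037 and those of at least 4000 from −0.082 to 0.102. Within the coding sequence alone, the first bin was at −0.050 and the last at 0.034.

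The separate rRNA rows did not follow this pattern. The 18S rRNA, the RNA of the small ribosomal subunit, was at 0.035 in its 5′ part and −0.041 in its 3′ part, and the 28S rRNA at −9e-05 and −0.025. In icSHAPE, over the genes present in all 4 profiles, the in vivo score went from 0.210 to 0.099 and the in vitro score from 0.179 to 0.079, so that the difference went from 0.025 to 0.013. For the same genes the icLASER difference went from −0.041 to 0.107. Transcript length moved with the gradient, and its part in it was not tested.

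The 4 bases differed in how they shifted. They were measured in up to 2707 genes, those whose transcript has the same length in GENCODE 44. Of these, 1044 were processed pseudogenes and 844 protein-coding transcripts. G, the base with the highest scores (median 0.249 in vivo and 0.268 in vitro), had a median difference of −0.0096 and was above 0 in 39.0% of genes. A was at 0.0044 (57.1% above 0), U at 0.018 (79.2%) and C at 0.021 (86.2%). C had 0.084 in vivo against 0.062 in vitro, so its level was the lowest in both conditions and its difference the largest. In the 5′ part G was at −0.043, A at −0.022, U at −0.0042 and C at 0.0072, whereas in the 3′ part all 4 were between 0.027 and 0.037.

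Short stretches with the largest differences show these patterns at single sites. Windows of 25 nucleotides inside 1 exon were searched in 521 well covered genes and the 5 lowest and 5 highest are printed from GENCODE 44 transcripts on GRCh38. They are written 5′ to 3′ in the sense of the transcript, with T for U, and capitals mark nucleotides whose score changed by at least 0.5 in the window's direction. The first 5 were lower in vivo.
SNHG3: TTCCTACAGCTtccCAGAGTCCTGT
KHSRP 5′ window: CGcCGgcGGGGGCgGgGGAGccgGA
DDX17: GaGTtgGTggGgaGGGAGgGAgGGG
RSL1D1: GCGCAccAgAagCCAGcaGTGGgGt
EIF5B: AcGGtggaAGCaGGTCaGGtGAaAC
The other 5 were higher in vivo.
PTP4A2: gATAAAAAAAAAAAAAAAACAAAAA
KHSRP 3′ window: AAAAaAaACTTAAAaATTAAAAACA
HNRNPF: AACTTGTTAAATTTTtTGtTAACtA
SLC7A5: gTGTTCtGGCTTTTTTGtgGgGTTT
VIM: TTTTTTTtTTccAgCaAgTAtccAa

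The strongest of the lower windows lay in exon 1 of 2 of an SNHG3 transcript at chr1:28507508-28507532 on the plus strand, inside the snoRNA SNORA73A, with a mean score of 0.051 in vivo and 0.927 in vitro. The next 2 were rich in G, with 16 and 18 G among 25: KHSRP, a KH-type splicing regulator, at chr19:6424630-6424654 (minus strand, coding sequence of exon 1 of 20; 0.040 in vivo, 0.715 in vitro), and DDX17, a DEAD-box helicase, at chr22:38485529-38485553 (minus strand, 3′UTR, exon 13; 0.094 and 0.749). RSL1D1, a nucleolar protein, had its window at chr16:11851546-11851570 (minus strand, 5′UTR, exon 1 of 8; 0.246 and 0.877). EIF5B, the factor that joins the ribosomal subunits, had it at chr2:99396842-99396866 (plus strand, coding sequence, exon 23 of 25; 0.195 and 0.794). With icSHAPE the SNHG3 window was likewise lower in vivo, at 0.173 against 0.767, the DDX17 window was at 0.142 and 0.200, the RSL1D1 window at 0.484 and 0.465 and this KHSRP window at 0.234 and 0.093.

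All 5 of the higher windows lay in 3′UTRs and were rich in A or U. Those of HNRNPF, SLC7A5 and VIM lay 97.9%, 98.9% and 97.2% of the way along their transcripts, close to the unscored 3′ end. The KHSRP window lay at 84.2% and the PTP4A2 window at 45.6%. HNRNPF, SLC7A5 and VIM held 13, 14 and 12 U in their windows, and U is not a base the reagent modifies. The part of position in these windows was not tested. PTP4A2, a phosphatase, had an A stretch with 22 A among 25 at chr1:31908231-31908255 (minus strand) with 0.979 in vivo and 0.059 in vitro. In KHSRP the higher window was at chr19:6413809-6413833 (minus strand; 19 A; 0.922 and 0.116), so that this gene held both a lower and a higher window. HNRNPF had its window at chr10:43386055-43386079 (minus strand; 13 U; 0.842 and 0.057), SLC7A5, an amino acid transporter, at chr16:87830053-87830077 (minus strand; 0.881 and 0.110), and VIM, which encodes vimentin, at chr10:17237530-17237554 (plus strand; 0.775 and 0.146). With icSHAPE the PTP4A2 window was at 0.580 in vivo and 0.241 in vitro, the KHSRP window at 0.357 and 0.157 and the VIM window at 0.300 and 0.133, whereas the HNRNPF window was at 0.020 and 0.045 and the SLC7A5 window at 0.013 and 0.040.

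Over all 521 genes, the highest window of a gene had a median difference of 0.229 and lay at a median of 79.6% of the way along the transcript, with 170 (32.6%) in the last bin. The lowest window had −0.212 and lay at 19.4% of the way, with 182 (34.9%) in the first bin. G made up 28.1% of the lowest windows, 24.2% of the highest and 25.1% of the searched transcripts. For U the shares were 22.4%, 26.9% and 23.8%, and for A 29.5%, 28.2% and 26.7%, so that A was no more frequent in the highest windows than in the lowest. These windows were picked by their differences, so the values are a description.

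The SNHG3 window led to small RNAs that lie inside longer transcripts, a rule set after the data had been seen. snoRNAs are mostly cut out of the introns of host genes, and a transcript that keeps such an intron carries the snoRNA sequence within it. In 57 genes a transcript held at least 20 scored nucleotides of an annotated snoRNA, scaRNA or snRNA and at least 100 outside it, and 29 of these transcripts were of the retained-intron class. Inside the small RNA the median score was 0.093 in vivo and 0.419 in vitro, while outside it was 0.166 in vivo and 0.095 in vitro. The inside score was lower in vivo in 56 of 57 genes, the other being SLC25A3 with 0.05 in both, and the outside score was higher in vivo in 54. The difference inside was below the difference outside in all 57.

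C/D snoRNAs, which guide 2′-O-methylation, and H/ACA snoRNAs, which guide pseudouridylation, had the same direction. The 30 hosts of C/D snoRNAs had 0.092 in vivo and 0.497 in vitro inside, and the 21 hosts of H/ACA snoRNAs 0.087 and 0.310. In SNHG3 the mean over SNORA73A was 0.093 in vivo and 0.618 in vitro against 0.179 and 0.095 outside. In RPL3, which hosts SNORD43, it was 0.194 and 0.707 inside and 0.166 and 0.053 outside. In RPL4 with SNORD16 it was 0.093 and 0.723 inside and 0.198 and 0.132 outside, and in EIF4A2 with SNORA63 0.041 and 0.419 inside and 0.166 and 0.038 outside. RACK1 with SNORD96A had 0.085 and 0.670 inside, RPL13A with SNORD32A 0.059 and 0.568, and SNHG1 with SNORD28 0.131 and 0.499. The order was the same for the snRNA hosts C12orf57 with RNU7-1 (0.094 and 0.442) and WDR74 with RNU2-2P (0.172 and 0.275).

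In icSHAPE the corresponding medians over 55 hosts were 0.108 in vivo and 0.335 in vitro inside and 0.169 and 0.085 outside, with the inside lower in vivo in 51. Within-transcript r in icLASER was 0.382 over the whole host transcript and 0.518 with the small RNA left out. In abundance, 5 of 17 genes with a snoRNA or scaRNA in the exons of their main transcript (29.4%) were at least 2-fold lower in vivo, against 49 of 4400 (1.11%) with no small RNA, and their median log2 ratio was −0.43. The share depended on the transcripts taken: over all transcripts it was 19 of 162 (11.7%) against 1.48%, with a median of 0.11, and among the 57 hosts above it was 11. Scores are scaled within a transcript, so the levels inside and outside are not independent, and reads of the free snoRNA and of the host cannot be told apart.

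**Figure D2:**
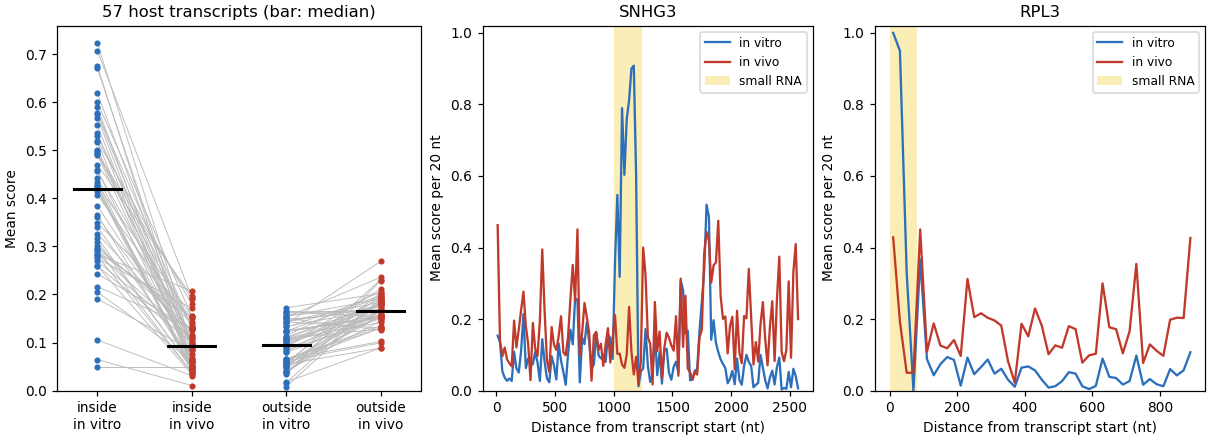
Left, mean score (vertical axis) inside and outside the small RNA in 57 host transcripts, refolded RNA and cells joined by a line for each gene, with bars at the medians. Centre and right, mean score per 20 nucleotides along SNHG3 and RPL3 against the distance from the transcript start, with the small RNA shaded, where the in vitro line is high inside the shading (mean 0.618 in SNHG3) and the in vivo line is not (0.093).

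Gene lists differed in mean score by less than the 2 ends of a transcript did. Ribosomal protein mRNAs had a median difference of 0.020, with 76 of 84 above 0 and 11 (13.1%) at least 0.05 higher in vivo against 1.85% of all genes. Protein-coding transcripts in the highest of the 4 groups by mean RPKM were at 0.016, with 3.13% at least 0.05 higher. The 13 mitochondrially encoded mRNAs, read by mitochondrial ribosomes and nearly without UTRs, were all above 0, with a median of 0.029, but over A and G alone the median was 0.0084 and 3 of 13 were below 0. Globins were at 0.022, oxidative phosphorylation mRNAs at 0.018 (2 of 80 at least 0.05 higher and 1 lower), actin and actin-binding proteins at 0.015 and polyadenylated histone variants at 0.025. The hnRNP and SR protein mRNAs were at 0.0035, the mRNAs of endoplasmic reticulum and secretory proteins at 9.7e-05, nucleolar proteins at −6.1e-04 and zinc finger proteins at −0.0020. The 5′ and 3′ parts were at −0.026 and 0.077 in ribosomal protein mRNAs and at −0.022 and 0.035 in the endoplasmic reticulum list, so lists with like 5′ parts differed in their 3′ parts. Structured noncoding RNAs (8 of 18 measured) had medians of 0.020 and −0.0057, but their members were split, with the 3′ part above the 5′ part in 4 of 8. When the median of all genes in each of the 10 bins was subtracted, all genes were at 0.0018, ribosomal protein mRNAs at 0.016, mitochondrially encoded mRNAs at 0.024 and hnRNP and SR proteins at −0.0028.

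**Figure D3:**
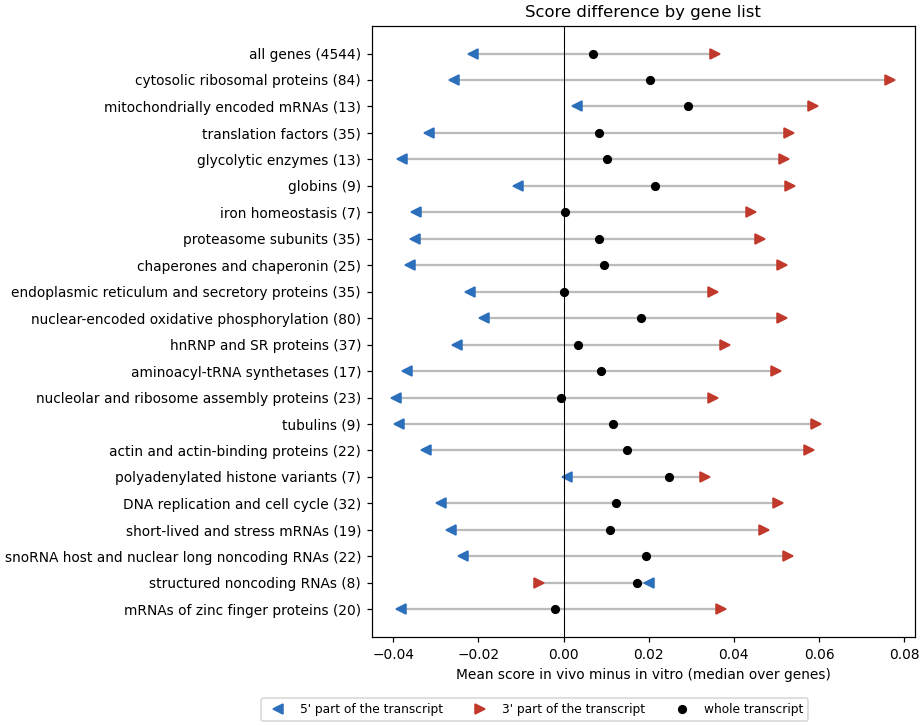
Median score difference, in vivo minus in vitro (horizontal axis), for all genes and 21 gene lists, with triangles for the 5′ and 3′ parts and dots for the whole transcript. The 3′ triangle lies right of the 5′ triangle in every list except structured noncoding RNAs, whose 8 members were split evenly, with the widest gap in ribosomal protein mRNAs (−0.026 and 0.077).

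Among the 1116 genes with an RPKM of at least 20 and 500 shared nucleotides in both profiles, those with the largest mean score differences were mostly short. GAS5, a growth-arrest long noncoding RNA that hosts snoRNAs, had a mean score of 0.203 in vivo and 0.071 in vitro, with 68.5 and 131 RPKM, and an r of 0.116. The ribosomal protein mRNA RPL8 had 0.241 and 0.173, and RPL29 had 0.212 and 0.148. SNHG32, another snoRNA host, had 0.201 and 0.135. NDUFS6, a subunit of complex I, had 0.203 and 0.142, LDHB, a lactate dehydrogenase subunit, 0.185 and 0.127, and the Fc receptor FCGR2A 0.195 and 0.139. In 7 of the 10 genes with the highest differences, both parts of the transcript were above 0. In GAS5 the 5′ part was at 0.071 and the 3′ part at 0.193. Transcripts of 1 gene could differ: over 29 transcripts of GAS5 the difference ran from −0.033 to 0.132 and r from 0.027 to 0.827. The difference ran from −0.034 to 0.063 over 9 transcripts of RPL29 and from −0.015 to 0.060 over 3 of NDUFS6. It stayed above 0 over 14 of RPL8 (0.021 to 0.071) and 9 of LDHB (0.0010 to 0.058). The LDHB transcript named here is of the retained-intron class.

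At the other end were long mRNAs whose 5′ parts were lower in vivo. LARP1, which binds the caps of ribosomal protein mRNAs, had 0.124 in vivo and 0.163 in vitro, with −0.121 in its 5′ part and 0.044 in its 3′ part. DDX17 had 0.127 and 0.165 and was below 0 in both parts (−0.048 and −0.026), as was CAB39 (−0.028 and −0.022), the only other of the 10 lowest with 1 sign. NUP210, a nuclear pore protein, had 0.145 and 0.174, and the secretory cargo receptor TMED2 0.147 and 0.179. EIF5B had the reverse order, with 0.042 in its 5′ part and −0.093 in its 3′ part. TFRC, below the abundance limit for the named set but extreme in its list, had 0.133 and 0.194. Length ran with this difference across the 4544 genes (Spearman rho −0.38), from a median of 0.013 in the shortest of the 4 groups to −0.0066 in the longest.

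How concentrated the reactivity was within a transcript was measured by the Gini index, which is 0 where all nucleotides have the same score and approaches 1 where a few hold all of it. The median was 0.759 in vivo and 0.761 in vitro, and the median difference −0.015. The index was at least 0.05 higher in vivo in 384 genes (8.45%) and at least 0.05 lower in 694 (15.3%). Scores were more evenly spread in vivo in 47 of 84 ribosomal protein mRNAs, 9 of 13 mitochondrially encoded mRNAs, 6 of 9 globins and 30 of 80 oxidative phosphorylation mRNAs, each by at least 0.05, while 35.0% of abundant protein-coding transcripts were. In the hnRNP and nucleolar lists none was and 4 each went the other way. The lowest difference of all genes was in GAS5 at −0.277 (0.641 in vivo and 0.917 in vitro), and PHGDH, the first enzyme of serine synthesis, was at −0.118. Among the same 1116 genes, the highest differences were in long transcripts, with NUP210 at 0.096, LARP1 at 0.093, the noncoding RNA NORAD, which binds Pumilio proteins, at 0.083, DDX21, a nucleolar helicase, at 0.068 and ACTR2, an Arp2/3 subunit, at 0.056. The Gini and mean score differences carry much of the same information (Spearman rho −0.88 across genes). The share of nucleotides with a score of 0 differed with length too. In the longest of the 4 groups by length its median was 57.6% in vivo and 47.3% in vitro, and in the shortest 47.1% and 56.6%. The part of this share in the differences was not tested.

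The similarity of the 2 profiles of a gene ran from r 0.037 to 0.963, with 0.450 and 0.679 at the quartiles. It was higher at higher abundance, from a median of 0.425 in the lowest of the 4 groups by mean RPKM through 0.520 and 0.611 to 0.716 in the highest (Spearman rho 0.66 across genes). Mitochondrially encoded mRNAs had a median of 0.841, globins 0.787, ribosomal protein mRNAs 0.718 and lncRNAs 0.468. MT-ATP6 had 0.888 and MT-CO1 0.877. ANP32B, an acidic histone chaperone, had 0.911 with icLASER and 0.418 with icSHAPE, and its relative ANP32A 0.892 and 0.258. Low values at high RPKM were seen in ATP5F1E, the epsilon subunit of ATP synthase (0.201 at 146 and 100.3 RPKM), and RPL31 (0.271 at 476 and 258 RPKM). Transcripts of 1 gene could differ in r, from 0.254 to 0.794 over 11 of RPL31 and from 0.066 to 0.201 over 3 of ATP5F1E. The range was 0.624 to 0.892 over 8 of ANP32A and 0.674 to 0.911 over 3 of ANP32B. Retained-intron transcripts had a lower r than the protein-coding transcript of the same gene in 588 of 884 genes (66.5%), by a median of 0.048, while their mean score difference was 0.0015 lower. These transcripts of a gene share exons and hence reads.

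**Figure D4:**
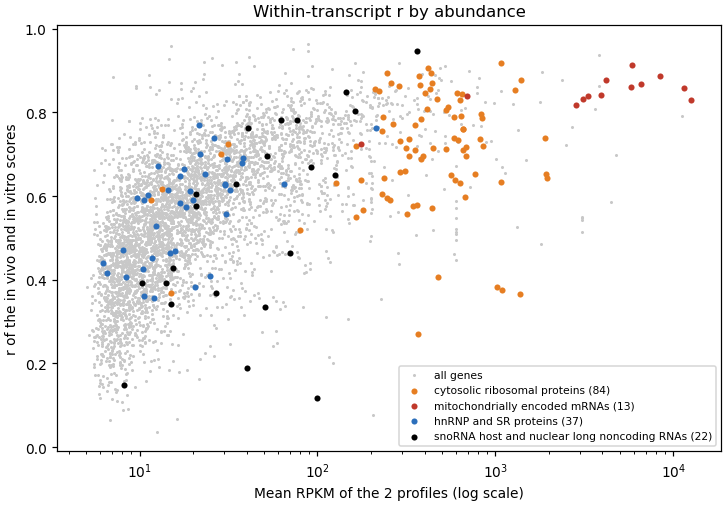
Correlation r of the in vivo and in vitro icLASER scores within each transcript (vertical axis) against the gene's mean RPKM (horizontal axis, log scale), 1 point per gene. The cloud climbs with abundance, from a median of 0.425 in the lowest of 4 equal groups by mean RPKM to 0.716 in the highest, and 4 gene lists are coloured.

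Set against icSHAPE over the 3504 shared genes, the centred log2 RPKM ratios had a Spearman rho of 0.23 and a Pearson r of 0.63, with the small RNAs at the far end of both. The mean score differences had −0.15 and the within-transcript r values 0.65. These points share transcripts, depth and base composition. The median mean score difference was 0.024 with icSHAPE over those genes.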

How the data were processed

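icLASER libraries from K562 cells were analysed from the deposited profiles. Per the study's methods, the authors selected poly(A) RNA in 2 rounds, enriched probed RNA through biotin, mapped the reads against GRCh38 transcripts of Ensembl release 88, and merged replicates and controls in the icSHAPE pipeline with its final coverage and background minimums removed. The submitters' processing notes name Trimmomatic and Bowtie2, with versions not given in the sources used here. The deposited RPKM values and the deposited scores (0 to 1 per nucleotide) were used unchanged. Which library an RPKM refers to is not given. Read counts behind a score are unknown, so no interval was computed for the value of a nucleotide or a gene.

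For each transcript in both profiles with at least 100 shared nucleotides, the log2 RPKM ratio (centred on its median), mean score, Gini index and r were computed (Python 3.11.15, numpy 2.4.6, pandas 2.3.3, scipy 1.17.1; figures with matplotlib 3.10.9). Log2 ratios used no pseudocount, as no RPKM was 0. Calls were a 2-fold RPKM ratio and differences of 0.05 in score or Gini index. Genes, biotypes and sequences came from GENCODE 44; base, region, host score and window results used only transcripts of the same length there (2707 of 4544 genes). Named genes had an RPKM of at least 20 and 500 shared nucleotides in both profiles (1116 genes); the 10 highest and lowest of each measure were taken, plus the extremes of each of 21 gene lists. The window search left out 1 chromosome. The members and lists were chosen with earlier results of these data known. The scripts were tested on simulated data. The 18S and 28S rRNA rows have no gene in GENCODE 44 and were kept apart. Some items are not reported here.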

Additional observations from a re-analysis of the deposited data

How the results depend on the processing

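No paired analysis was possible because each profile pools its replicates, and for the same reason no replicate was left out. A value counts as unchanged where it stayed inside the 95% binomial (order-statistic) interval of the median, or within 1.5 times the count. That interval is taken over genes, which are not replicates of a condition. It is only a yardstick and does not measure how a result varies between preparations.

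With all 13593 transcripts in place of 1 per gene, 266 had an RPKM at least 2-fold lower and the in vivo Gini index was 0.752. The median score difference was 0.0078, with 263 (1.93%) higher and 117 (0.86%) lower by 0.05, against 1.85% and 1.34% of genes. The Gini index was higher by 0.05 in 940 (6.92%) and lower in 2118 (15.6%), against 8.45% and 15.3% of genes. The alternatives hold unlike numbers of members, so a count can move where its share does not. With an RPKM of at least 20, 10 genes were 2-fold higher, the score difference was 0.012 (44 higher, 4 lower), Gini 0.716 in vivo and 0.745 in vitro (difference −0.029, 20 higher, 402 lower) and r 0.688. With at least 500 shared nucleotides, 8 were 2-fold higher and 38 lower, the score difference was 0.0053 (36 higher), Gini 0.748 and 0.750 (−0.0095, 410 lower) and r 0.539. With A and G only, in 2707 genes (1044 of them processed pseudogenes), the score difference reversed to −0.0017 (157 lower). Gini was 0.734 and 0.720 (−0.0058, 241 lower) and r 0.620. Both the genes and the bases changed in this alternative, and their parts were not separated. In the 5′ part alone the score difference reversed to −0.021 (909 lower), as did Gini to 0.016 (0.773 and 0.739, 1176 higher, 273 lower), with r 0.556. In the 3′ part they were 0.036 (1413 higher) and −0.041 (0.729 and 0.764, 244 higher, 1858 lower), with r 0.603. With the median over nucleotides the score difference was 0 (2 higher, 1 lower). In the median gene 49.3% of nucleotides in vivo and 48.4% in vitro had a score of 0. The median over nucleotides is thus near the floor and can show little difference. Without nucleotides at 0 in both conditions the mean score difference was 0.011 (386 higher, 231 lower), Gini 0.640 and 0.653 (−0.025, 676 higher, 1381 lower) and r 0.488. Spearman's coefficient was 0.470. Without centring, 124 genes were 2-fold higher, and at 3-fold 6 were higher and 52 lower. With each gene's own mean as scale, the score difference was 0.010.

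Of the alternatives chosen after seeing the data, subtracting the bin medians gave 0.0018 (92 lower). Leaving out pseudogenes gave 16 genes 2-fold higher, a score difference of 0.0061, Gini 0.737 and 0.745 (−0.010) and r 0.537. Leaving out transcripts that hold small RNAs changed none of these results. Among gene list medians, 46 of 105 values stayed and 59 moved, and among named genes 48 of 80 stayed. The alternatives change which nucleotides or genes enter, so they are not errors of the main values.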

Other observations

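Transcripts with a row in only 1 of the 2 icLASER profiles, which the comparison leaves out, differed in class. Of 2839 rows found only in vivo, 397 (14.0%) were processed pseudogenes and 137 were lncRNAs. Of 2044 found only in vitro, 21 (1.03%) were processed pseudogenes, 32 were lncRNAs and 31 were snoRNAs. A missing row means that the transcript did not reach the deposited minimum in that profile, not that it was absent.

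Transcripts of histone genes were spread on both sides of the median gene in RPKM. Most are of replication-dependent genes, whose mRNAs mostly end in a stem-loop rather than a poly(A) tail. Of 16 measured genes picked after the data were seen, 9 were below the median gene, with a median centred log2 ratio of −0.05. The 16 include H1-10 (0.18), also counted above among the polyadenylated histone variants. They also include long transcripts, such as H2BC21 with 2194 nucleotides, and which 3′ end these carry was not measured. H2BC17 was lowest with 6.83 RPKM in vivo and 14.7 in vitro (−1.27), and the linker histone H1-2 highest with 412 and 222 (0.72).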
